A study of Mus musculus with 8 samples.

Results

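The genes measured here carry the synthesis, binding, sensing and clearance of retinoic acid in the mouse oviduct. All probes whose gene name in the array files was Aldh1a1, Aldh1a2, Aldh1a3, Crabp2, Rara, Rarb, Rarg, Cyp26a1 or Cyp26b1 were taken, which gave 12 probes for 9 genes of the 41174 noncontrol probes and 27670 gene names on the array. From PND1 to PND5, CD-1 pups received daily subcutaneous injections of genistein (Gen), a soy phytoestrogen with estrogenic activity, at 50 mg/kg/day in corn oil, or of the oil by itself (control). Both groups were superovulated and mated as adults at 6–8 weeks, and oviducts, freed of embryos, were taken on GD2 (48 hr after hCG). One sample was the RNA of both oviducts of 1 mouse, labeled with 1 dye, and each group had 4 mice. Superovulation was thus shared by controls and Gen-treated mice, and the treatment ended weeks before the RNA was taken. Each group was hybridized on a slide of its own, and effects of slide and of treatment cannot be told apart.

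Retinoic acid is made from vitamin A. Retinol is first oxidized to retinal, and retinal dehydrogenases of the Aldh1a family then form retinoic acid. Crabp2 carries the acid to the nucleus, where the retinoic acid receptors (Rara, Rarb, Rarg) sit on DNA with retinoid X receptors and turn genes on when the acid is bound. Cytochrome P450 enzymes of the Cyp26 family break it down, and Cyp26a1 and Rarb are textbook target genes of the receptors themselves. In the female reproductive tract, retinoids are known for their part in setting the fate of the Müllerian duct epithelium.

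A direct repeat of the receptors' binding half-site, with 5 bases between the copies, is a textbook form of the element through which retinoic acid acts. The letters AGGTCA, with the variants AGTTCA and GGGTCA and also GGTTCA, followed after 5 bases by any of the same 4, were searched on both strands in RefSeq promoter windows of the assembly GRCm38.p6, which run from 250 bases before to 50 bases after each annotated start. Of 32851 windows, 32 (0.0974%) held such a repeat. Windows were found for 7 of the 9 genes (12 windows), and those of Cyp26a1 and Rarb held the repeat. Both are shown because Cyp26a1 is the gene the results turn on and Rarb is the receptor with the same element. They give the 250 bases before the start, 5′ to 3′ on the gene's strand, with the repeat in capitals. The Cyp26a1 sequence is chr19:37697558-37697807 on the plus strand, and the Rarb sequence is chr14:16575477-16575726 on the minus strand. The third line is the array probe that measured Cyp26a1, at chr19:37401759-37401818 on the plus strand of mm7, the build of the array design.
Cyp26a1 promoter: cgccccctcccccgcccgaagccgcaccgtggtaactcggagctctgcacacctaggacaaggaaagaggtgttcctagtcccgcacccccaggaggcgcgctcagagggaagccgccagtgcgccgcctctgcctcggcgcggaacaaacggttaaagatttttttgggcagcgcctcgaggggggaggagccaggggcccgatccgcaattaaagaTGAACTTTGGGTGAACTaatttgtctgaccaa
Rarb promoter: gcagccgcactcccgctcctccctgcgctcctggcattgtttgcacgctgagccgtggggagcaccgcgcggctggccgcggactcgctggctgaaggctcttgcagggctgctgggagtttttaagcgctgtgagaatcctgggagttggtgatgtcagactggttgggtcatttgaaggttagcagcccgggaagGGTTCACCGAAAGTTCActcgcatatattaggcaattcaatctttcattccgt
Cyp26a1 probe: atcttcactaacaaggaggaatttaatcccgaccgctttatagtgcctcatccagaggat
In Cyp26a1 the repeat lies 32 to 16 bases before the start and reads on the opposite strand, and in Rarb it lies 53 to 37 bases before the start on the gene's own strand. A match of letters is a description of the sequence and not evidence of binding in these oviducts. In these data Cyp26a1 was lower in Gen-treated mice, whereas Rarb, with the same element, had a slightly higher signal that did not pass the test, as given below with their values.

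Among the 9 genes, Cyp26a1 was the 1 whose expression changed by the test. Its scaled signal was 12647, 16079, 11887 and 13584 on the control arrays and 5514, 1416, 5385 and 3105 on the Gen arrays. Every Gen-treated mouse was below every control, and the Gen group was also the more spread, with an SD of 0.92 on the log2 scale against 0.19 in controls (n = 4 each). The geometric means were 13461 and 3380, so that Gen-treated mice were 3.98-fold lower, with a log2 fold change of -1.99 (SE 0.41, 95% interval -2.95 to -1.04, limma adjusted p = 0.0236, n = 4 and 4). The scanner software marks whether a spot exceeds its local background clearly, here called well above background, and the Cyp26a1 probe did so on all 8 arrays. The size of its change was at percentile 99.5 of all probes that did. With 4 arrays against 4, the exact 2-sided permutation test can give no p below 0.0286, and Cyp26a1 was at that value.

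At an adjusted p under 0.05, 1 of the 12 probes was called, where the same fit called 16.2% of all 41173 probes tested and 14% as lower in Gen-treated mice. Many of those calls were on dim probes. Among 7855 probes that no array showed well above background, 63.6% were called lower, with a median log2 fold change of -1.16, against 2.44% of the 24947 probes that every array showed well above background, with a median of -0.01. Of these brighter probes, 4.37% were called in either direction, and 9 of the 12 member probes were among them. When the test was run only on the 28966 probes that were well above background throughout at least 1 group, 1.11% were called, and Cyp26a1, with the same fold, had a limma adjusted p of 0.0609. It was also no longer below the threshold when control 1, Gen 1, Gen 2 or Gen 3 was left out, with log2 fold changes of -2.02, -2.23, -1.58 and -2.22 and adjusted p of 0.0591, 0.0633, 0.0675 and 0.0603.

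**Figure D1:**
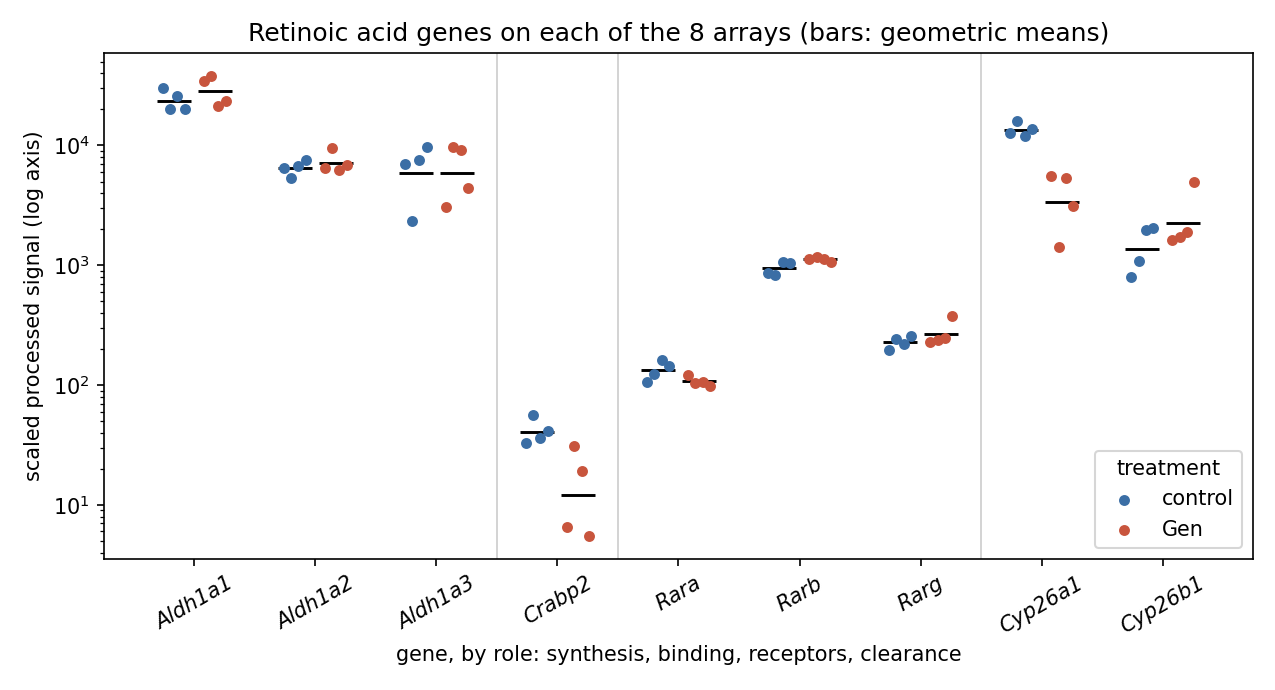
Scaled processed signal (log axis) of the brightest probe of each gene on each array, with control arrays in blue, Gen arrays in red and geometric means as bars. The 4 Gen arrays of Cyp26a1, between 1416 and 5514, all lie below the controls, between 11887 and 16079, and signals of different probes are not comparable as levels.

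**Figure D2:**
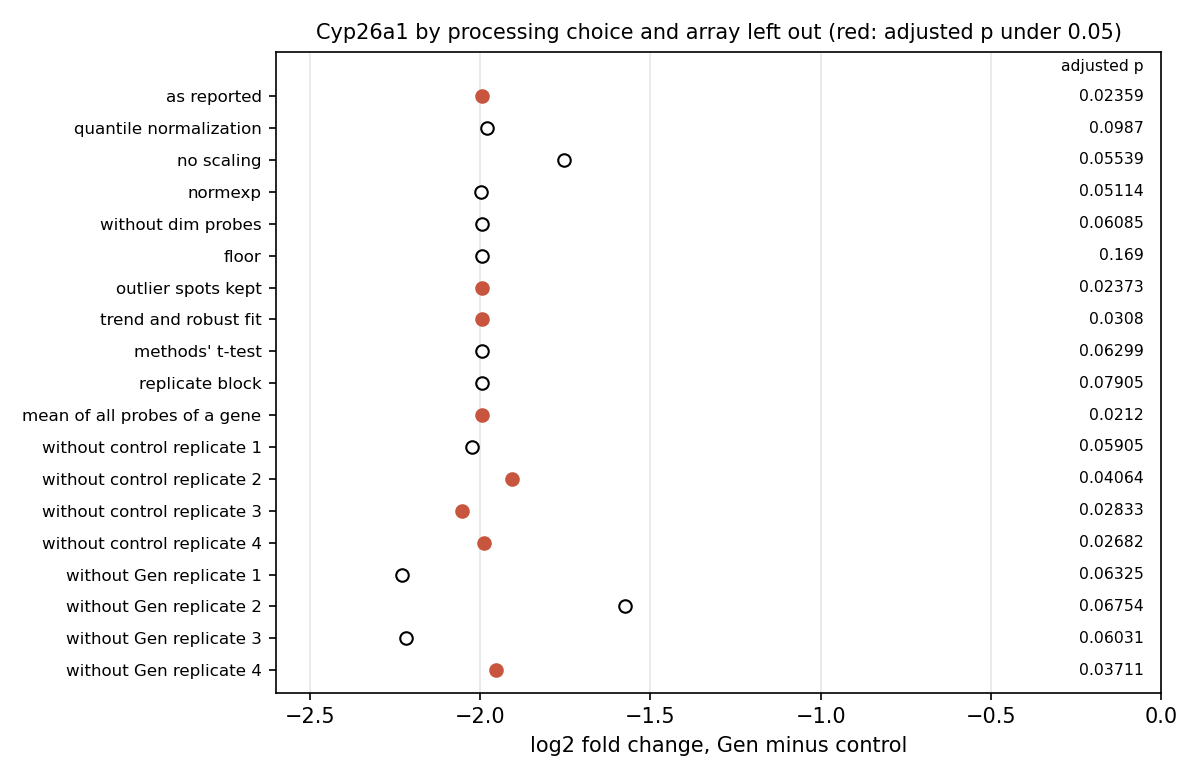
Log2 fold change of Cyp26a1 (Gen minus control) as reported, under 10 other processing choices and with each of the 8 arrays left out, with its adjusted p at the right and points in red where that was under 0.05. Every value lies between -2.23 and -1.58, while the adjusted p was under 0.05 in 3 of the 10 choices and 4 of the 8 omissions. Choices that change only the test, or leave the probe's values as they were, could not move the fold change.

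Cyp26b1, the other clearing enzyme measured, was not called. Its signal was 793, 1083, 1956 and 2047 in controls and 1619, 1732, 1905 and 4916 in Gen-treated mice. The groups overlapped, with 3 Gen arrays inside the range of the controls and Gen 4 above all others. The log2 fold change was 0.73 (SE 0.44, 95% interval -0.29 to 1.75, limma adjusted p = 0.331). The interval reaches from a slight fall to more than a doubling on the log2 scale, so a change in either direction was not resolved with these arrays.

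The 3 retinal dehydrogenases that form retinoic acid did not pass the test. Aldh1a1, abundant in many epithelia, had signals of 30247, 20092, 25706 and 20193 in controls and 34499, 37990, 21401 and 23348 in Gen-treated mice. Gen 1 and Gen 2 were above all controls and the other pair lay among them, for a log2 fold change of 0.26 (SE 0.23, 95% interval -0.27 to 0.80, limma adjusted p = 0.514). Aldh1a2, the main source of retinoic acid in the early embryo and a stromal enzyme in many organs, gave 6501, 5368, 6679 and 7606 in controls and 6516, 9584, 6227 and 6863 in Gen-treated mice. Apart from Gen 2, the Gen arrays lay within the range of the controls, and the log2 fold change was 0.15 (SE 0.18, 95% interval -0.26 to 0.55, limma adjusted p = 0.636).

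Aldh1a3 was the most variable of the 3 between mice of the same group. Its brighter probe gave 6939, 2358, 7542 and 9643 in controls and 3052, 9641, 9079 and 4389 in Gen-treated mice. Control 2, Gen 1 and Gen 4 were low and the ranges of the groups nearly coincided, with a log2 fold change of -0.01 (SE 0.53, 95% interval -1.23 to 1.22, limma adjusted p = 0.996). The log2 SD was 0.90 in controls and 0.81 in Gen-treated mice, so a change of 2-fold in either direction lies inside the interval. The other Aldh1a3 probe was dim, with 2 control arrays and all 4 Gen arrays well above background, and gave another value than the first. It read 42.6, 48.9, 33.0 and 39.2 in controls and 44.3, 112, 90.2 and 50.2 in Gen-treated mice, where Gen 2, Gen 3 and Gen 4 exceeded every control, and its log2 fold change was 0.76 (standard error 0.31, limma adjusted p = 0.1496).

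Crabp2 was at the edge of detection. Its signal was 32.9, 56.1, 36.1 and 41.0 in controls and 6.51, 30.9, 19.1 and 5.54 in Gen-treated mice. The groups did not overlap, but only 2 control arrays and 1 Gen array showed the probe well above background. The log2 fold change was -1.75 (SE 0.55, 95% interval -3.01 to -0.49, limma adjusted p = 0.0678), which did not pass the test. With normexp background correction it was -0.67 (limma adjusted p = 0.109), so the size of the difference depended on how background was treated. With every value below 65.9, the highest of the arrays' lowest signals well above background, no order could be given to the groups once that floor was set.

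The 3 retinoic acid receptors did not pass the test. Rarb, the receptor that retinoic acid itself turns on in many cells, was measured by a probe spotted 10 times on each array. Its signal was 868, 836, 1065 and 1037 in controls and 1133, 1175, 1129 and 1073 in Gen-treated mice. All Gen arrays were above all controls, by as little as the step from 1065 to 1073, and the exact 2-sided permutation p was 0.0286, the smallest possible. The log2 fold change was 0.25 (SE 0.12, 95% interval -0.03 to 0.53, limma adjusted p = 0.218), which did not pass the test over all probes. The Gen arrays were also closer together, with a log2 SD of 0.05 against 0.18 in controls. The other Rarb probe cleared the background on 0 control arrays and 2 Gen arrays and gave a log2 fold change of 0.04 (SE 0.42).

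Rara, the most broadly expressed of the receptors in general, gave 106, 123, 163 and 145 in controls and 120, 105, 106 and 98.2 in Gen-treated mice. The groups overlapped, with control 1 among the Gen arrays, and the log2 fold change was -0.31 (SE 0.16, 95% interval -0.67 to 0.05, limma adjusted p = 0.248). Rarg, known from skin and cartilage, gave 195, 244, 221 and 255 in controls and 227, 236, 246 and 376 in Gen-treated mice. Gen 4 alone was above the controls, and the log2 fold change was 0.22 (SE 0.19, 95% interval -0.21 to 0.65, limma adjusted p = 0.492). The other Rarg probe, also well above background on all 8 arrays, gave 0.06 (SE 0.12).

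Across the 9 genes at their brightest probe, the measured signals of the groups did not overlap for 3, Cyp26a1, Crabp2 and Rarb. For Crabp2 most of those signals were not well above background, and with the floor the count was 2. Of all probes, 22.5% had groups that did not overlap, and of those well above background on all 8 arrays 12.4%. The median log2 fold change of the 9 genes was 0.15, with 5 values above 0 and 4 below. Apart from Cyp26a1 and Crabp2, log2 fold changes lay between -0.31 and 0.73.

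The other genes of retinoid handling were taken from a list of 53, of which 52 had a probe. For 38 the signal cleared the background by this measure on every array. Limma called 0 of the 38 at an adjusted p under 0.05, where the fit called 4.37% of all such probes. At an unadjusted p under 0.05 there were 6, but the share of all such probes at that threshold was not computed, so this count cannot be judged. The methods' t-test called 0 after adjustment, as it did over all probes. The median log2 fold change of the 38 was -0.04. The largest fold changes among these 38, by size and not by p, were those of Fabp5, a fatty acid binding protein that also carries retinoic acid, and of Adh7, an alcohol dehydrogenase that oxidizes retinol. Fabp5 gave 198, 153, 95.8 and 88.1 in controls and 80.1, 29.98, 77.0 and 40.9 in Gen-treated mice. These groups did not overlap, with a log2 fold change of -1.27 (SE 0.40, 95% interval -2.18 to -0.36, limma adjusted p = 0.0671). Adh7 gave 6442, 2781, 2856 and 1934 in controls and 3674, 6466, 6763 and 9470 in Gen-treated mice. Control 1 lay between Gen 1 and Gen 2 while the other controls were below all Gen arrays, and the log2 fold change was 0.99 (SE 0.41, 95% interval 0.04 to 1.93, limma adjusted p = 0.159).

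Among the 38 genes, the groups also did not overlap for Adh1, Adh5 and Dhrs4, enzymes that oxidize alcohols or reduce retinal. They are named here after their values were seen. With Fabp5, 1 of the 38 genes lay wholly higher and 3 wholly lower, where 12.4% of all such probes did not overlap. Adh1 had geometric means of 34909 (control) and 55734 (Gen) (log2 fold change 0.68, SE 0.21, limma adjusted p = 0.0619). Adh5 had means of 94447 and 65925 (log2 fold change -0.52, SE 0.17, limma adjusted p = 0.0827). In Dhrs4 the difference was small, at -0.22 (standard error 0.11, limma adjusted p = 0.244).

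Over all 52 genes 4 were called, 1 higher and 3 lower, against 16.2% of all probes, and all 4 were outside the genes well above background on every array. Rdh16, a retinol dehydrogenase, was not well above background on any control array (8.498, 7.20, 13.8 and 5.99). In Gen-treated mice it was well above background on 3 of 4 arrays (11.8, 184, 74.7 and 105). Gen 1 lay among the controls, and the groups overlapped. Limma called Rdh16 higher on the signals as measured (limma adjusted p = 0.037). As a bound that was not itself tested, it was at least 1.61-fold higher in Gen-treated mice. For this bound each control array was set at no less than its own lowest signal well above background. With the common floor of 65.9 used for Crabp2, which lies above the Gen mean of 64.2, Rdh16 was not called. Rbp3, Ttr and Hoxb1 were called lower but were not well above background on any of the 8 arrays, so no fold is given. These 4 were likewise named after their values were seen. The retinoid X receptors Rxra, Rxrb and Rxrg, partners of the receptors above, had log2 fold changes of 0.15, -0.07 and -0.93 and were not called. The 6 coregulators of nuclear receptors that were listed lay between -0.25 and 0.26.

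**Figure D3:**
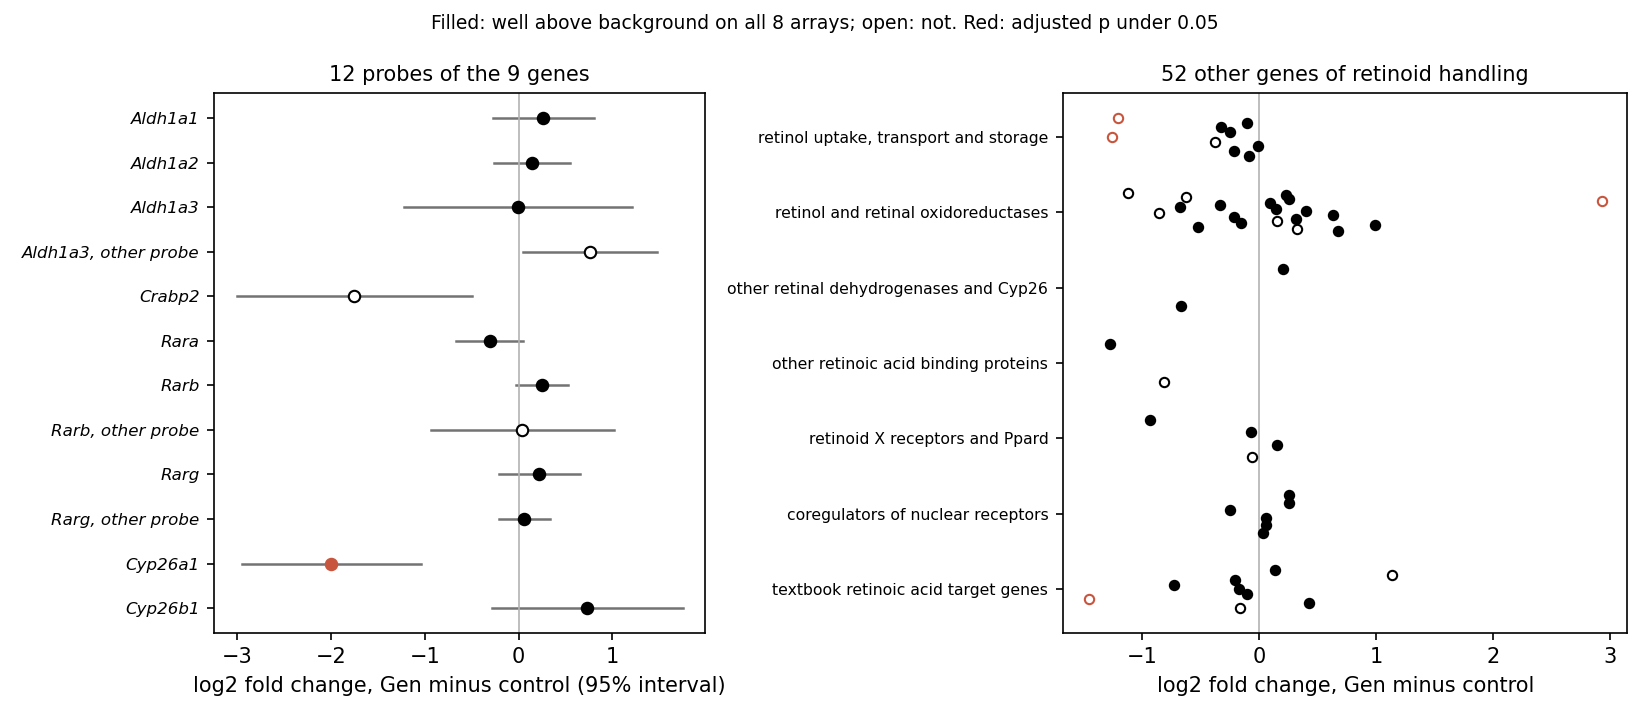
Log2 fold change (Gen minus control) of the 12 probes of the 9 genes with 95% intervals (left) and of 52 other genes of retinoid handling by group (right), filled where the probe was well above background on all 8 arrays, open otherwise, and red at an adjusted p under 0.05. Cyp26a1, at -1.99, is the 1 filled red point, and the 4 red points at the right are open.

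Of 29 other genes whose windows held the direct repeat 7 had a probe. Of these, 5 cleared the background on every array and limma called 0 of the 5 (0 at an unadjusted p under 0.05, and 0 by the methods' t-test after adjustment). The fit called 4.37% of all such probes, so 0 of 5 carries no result about the repeat. The median log2 fold change of the 5 was 0.43, against -0.01 for all such probes, and this difference was not tested. Over the 8 arrays, the 3 genes with the profile most like Cyp26a1 among 22260 probes well above background were Meltf, Apobec3 and Coch, with Pearson's r of 0.991, 0.991 and 0.989. With the group means taken out, r was 0.97, 0.964 and 0.961. The arrays in a group share a slide, and 73 probes reached an r of 0.95, so these values describe the ranking only. Coch, which encodes a secreted protein, had geometric means of 686 (control) and 106 (Gen), for a log2 fold change of -2.70 (standard error 0.47, limma adjusted p = 0.0236). Meltf, which encodes melanotransferrin, had a log2 fold change of -0.88 (standard error 0.21, limma adjusted p = 0.0271), and Apobec3, an antiviral cytidine deaminase, of -0.44 (standard error 0.13, limma adjusted p = 0.0484). Without dim probes Coch stayed called (limma adjusted p = 0.0412), and Meltf (0.0822) and Apobec3 (0.104) did not. These 3 genes were picked for following Cyp26a1 across both groups. Their lower signal in Gen-treated mice was thus largely set by the choice, and their p values are not separate evidence.

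The RNA came from whole oviducts, so fewer cells of a type and less RNA per cell cannot be told apart in any of these values. Markers of secretory cells (Ovgp1, Pax8, Sox17), ciliated cells and smooth muscle were well above background on all 8 arrays. Of the secretory markers 1 of 3 was called lower, Sox17, with means of 30346 and 19742 (limma adjusted p = 0.0394, and 0.0993 without dim probes). The fit called 2.44% of all probes well above background on every array as lower. Ovgp1 and Pax8 had log2 fold changes of 0.06 and -0.28 (limma adjusted p = 0.863 and 0.351), so the secretory markers did not move together. Markers of ciliated cells, epithelium as a whole, smooth muscle, stroma, mesothelium, cumulus cells and squamous epithelium had 0 called by limma. Krt8, Actg2, Ptgs2 and Krt15 had an unadjusted p under 0.05, with log2 fold changes of -0.31, -0.52, -1.43 and -0.73. All 5 smooth muscle markers were lower in Gen-treated mice, between -0.52 and -0.19. Each of the other lists in this group held values on both sides of 0.

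Markers of other cells that an oviduct sample could hold were read in the same fit. Of 9 markers of ovarian steroidogenic and granulosa cells 5 were called higher, where 892 of all 41173 probes were. The summed signal of the 9 was 3408 to 28357 in controls and 31929 to 140796 in Gen-treated mice. Hsd3b1 gave the largest part of the sum on every Gen array, with 88719 on Gen 1. Star (log2 fold change 1.80), Amh (1.88), Fshr (0.49) and Foxl2 (0.02) were not called. Without dim probes 0 of the 5 stayed called by limma, although their unadjusted p was under 0.05, with adjusted p of 0.0682 for Cyp11a1, 0.0751 for Hsd3b1, 0.0899 for Lhcgr and 0.0946 for Inha, while Cyp19a1 was then not tested. Lhcgr, Cyp19a1 and Amh were not well above background on any control array. Of 6 oocyte and embryo markers 0 were called by limma, with sums of 383 to 4655 and 4791 to 31027. All 6 had an unadjusted p under 0.05, but the share of all probes at that threshold was not computed. These markers rose and fell together over the arrays, so they are not 6 separate results. Of 6 leukocyte markers 3 were called higher, with sums of 9712 to 12348 and 14950 to 22105. Adgre1 gave the largest part of each sum. Cd68 (log2 fold change 0.40), Cd79a (0.73) and Cd3e (-0.01) were not called. Without dim probes Itgam stayed called (limma adjusted p = 0.0412), and Ptprc (0.0969) and Adgre1 (0.0699) did not. Gen 2 had the lowest Cyp26a1 signal (1416) and the highest oocyte and leukocyte sums. Gen 1 had the highest ovarian sum and the highest Cyp26a1 signal of its group (5514). Control 3 had the lowest Cyp26a1 signal of the controls (11887) and their highest ovarian and leukocyte sums. The highest oocyte sum of the controls was on control 1. The part of these cells in the values of the retinoic acid genes was not tested.

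**Figure D4:**
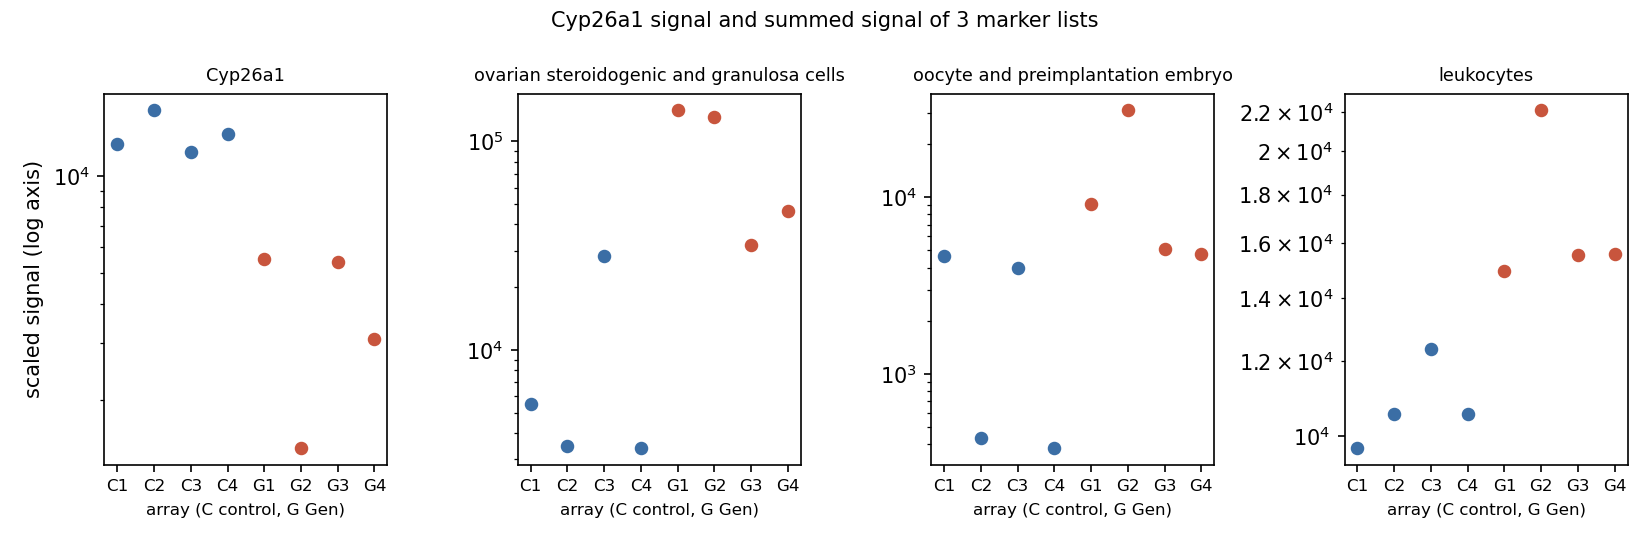
Scaled signal (log axes, each with its own range) of Cyp26a1 and summed signal of the markers of ovarian steroidogenic and granulosa cells, of oocytes and preimplantation embryos, and of leukocytes on each control (blue) and Gen (red) array. In each panel the 4 Gen arrays lie on 1 side of the 4 controls, below for Cyp26a1 and above for the marker lists.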

How the data were processed

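Oviduct RNA of 8 mice (4 control, 4 Gen) was measured on 1-colour Agilent arrays, with groups taken from the labels. For each array the authors deposited scanner output of Agilent Feature Extraction 9.5, whose processed signal is a linear intensity after background adjustment and detrending, not scaled between arrays. The deposited series table held the same values. Later steps of the study in Rosetta Resolver were not applied.

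Control spots (1639) and outlier spots were removed. Replicate spots were then averaged on the log2 scale, and arrays were brought to a common 75th percentile, the mean over arrays. The treatments were compared with limma 3.58.1 (lmFit, eBayes) in R 4.3.3 with the package data.table (1.17.8), with Benjamini-Hochberg adjustment over 41173 probes and a threshold of 0.05. A gene was represented by its probe with the highest mean log2 signal. The steps were tested on simulated data. Plots were drawn with matplotlib 3.10.9. Probes well above background numbered 25391 to 28949 on control and 29539 to 31486 on Gen arrays, and the number of arrays limits the precision.

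Genes were named by RefSeq accession (22951 probes), by name or synonym (9768), or as in the files (8455), and promoter sequences were those of RefSeq, GRCm38.p6. Exons and untranslated regions of the probes are not given, since no genome of mm7 was used. The members and lists were chosen with earlier results of these data known. Genes named were the members, pathway genes called and well above background on all 4 arrays of a group (0 genes), the 2 genes of largest change not called among those well above background on all 8 arrays, and the 3 genes most like Cyp26a1. Alternatives were quantile normalization, no scaling, normexp (offset 50), no dim probes, a signal floor, keeping outlier spots, a robust fit with an intensity trend, the methods' t-test, a replicate block, the mean of a gene's probes, and each array left out.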

Additional observations from a re-analysis of the deposited data

Results flagged for a closer look

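In 2 of 18 groups examined (9 genes, 4 arrays in each group), 1 array stood far from the others by Dixon's ratio of its gap to the range, and chance marks about 1 group in 20. In both it was Gen 4. For Cyp26b1 the ratio was 0.854, at a signal of 4916, and for Rarg it was 0.843, at a signal of 376. Without Gen 4 the log2 fold changes were 0.36 and 0.05.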

How the results depend on the processing

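The call of Cyp26a1 depended on the processing, while its direction did not under the alternatives run. With all arrays its log2 fold change lay between -1.997 and -1.75 and its adjusted p between 0.0212 and 0.169. With 1 array left out its log2 fold change varied more, from -2.23 to -1.58. The number of member probes called was 0 rather than 1 with quantile normalization, no scaling, normexp, no dim probes, the floor, the methods' t-test and the replicate block, and 0 to 1 with 1 array left out. At an unadjusted p under 0.01, the t-test on the scaled signals called 1 member probe, Cyp26a1 (6098 of all probes). It called 0 after Benjamini-Hochberg adjustment. The paper used that threshold with an analysis of variance of its own processed arrays, which was not rerun. The number of member genes without overlap, 3, was 1 without scaling, 2 with the floor and with the mean of a gene's probes, 4 with quantile normalization, and 3 to 4 with 1 array left out. Pathway genes called numbered 0 with quantile normalization, normexp, no dim probes, the floor, the methods' t-test and the replicate block, 1 without scaling, 7 with the trend and robust fit, and 0 to 3 with 1 array left out. The sign of Aldh1a3 turned, to 0.017 with quantile normalization, 0.24 without scaling and 0.38 as the mean of its probes, and ran from -0.44 to 0.31 with 1 array left out. Alternatives that change only the test could not turn a direction. Of 160 values of the 9 genes, 141 kept their direction and side of the threshold. Much of that count was fixed beforehand, since several settings leave fold changes as they were and only Cyp26a1 had a call to lose. It lost that call in 11 values, and the other 8 were turns of sign of Aldh1a3. The cause of these differences was not tested. Crabp2 was -0.67 with normexp and has no value with the floor.

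Over all probes, 6674 calls (892 higher) became 178 (97) with quantile normalization, 640 (467) without scaling, 251 (103) with normexp, 321 (175) without dim probes, 20 (9) with the floor, 0 with the methods' t-test, 1 with the replicate block, and 1 to 7130 with 1 array left out. The median of all probes was 0.18 without scaling and -0.14 with normexp. Deviations of same-numbered arrays correlated at -0.08, 0.11, -0.02 and -0.18, without a comparison to differently numbered arrays. The paper compared Gen-treated mice with control littermates, and the sample titles name no litter. Whether arrays are paired was therefore not tested. Dim probes such as that of Crabp2 are limited by background, and the 4 mice in each group limit the rest.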
